A study of Rattus norvegicus with 6 samples.

Results

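Translation initiation factors are the proteins that bring the small ribosomal subunit, the initiator tRNA and the capped mRNA together and let the large subunit join. The genes described here are those whose array probe sets carry exactly 1 gene symbol that begins with Eif and a digit from 1 to 6. They comprise 49 genes, read by 75 probe sets, of 14217 genes and 20826 probe sets with 1 symbol on the array. The symbols cover the factors eIF1 to eIF6 and the guanine nucleotide exchange factor eIF2B. They also cover the kinases that phosphorylate eIF2 and the proteins that bind and block the cap-binding factor eIF4E. The members were chosen by name and not by any measured value. Of the 49 genes, 48 had a signal high enough to be tested. The exception was Eif2s3y, with a signal of 0.0824 to 5.04 on the AEBSF arrays and 0.171 to 8.39 on the mineralizing arrays. A further 5 probe sets whose annotation joins an initiation factor symbol to another symbol were not used, and Eif5 and Eif3e were therefore not analysed here.

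The RNA came from UMR106-01 cells, a rat osteosarcoma line with features of osteoblasts, and each array holds 1 culture. The 3 AEBSF cultures received 400 µM AEBSF, an irreversible serine protease inhibitor, together with 6.5 mM beta-glycerol phosphate. The 3 mineralizing cultures received 6.5 mM beta-glycerol phosphate alone. All 6 cultures grew in 10% fetal bovine serum, were re-fed with these media at 64 h after plating and were harvested at 76 h, so exposure lasted 12 h. The cells are 1 line, so the cultures of a group share their genotype. Of the osteoblast markers, all 7 were bright enough to be tested. Among them, Ibsp had a signal of 17101 ± 251 with AEBSF and 16520 ± 750 in the mineralizing cultures (SD, n = 3 each). In limma 3 of the 7 fell, against 9.22% of all tested genes, and the other 4 did not pass. The falls were 1.59-fold for Col1a1, 2.18-fold for Col1a2 and 1.66-fold for Phex. Of 12 measured markers of myeloid, endothelial, muscle and fat cells, 9 lay below the signal filter. On each of the 6 arrays the mean signal, without its lowest and highest 2%, was 500.15 or 500.16, so all rises and falls given here are relative to the other transcripts on the array. In RNA from whole cultures, a change in the kinds of cells present and a change in RNA per cell cannot be told apart.

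Initiation is the step at which cells most often set the rate of protein synthesis. When eIF2 is phosphorylated, it holds back its exchange factor eIF2B, overall initiation drops, and a few mRNAs such as that of Atf4 are translated better. When 4E-binding proteins are not phosphorylated by the kinase complex mTORC1, they hold eIF4E away from the scaffold eIF4G. An osteoblast that lays down collagen has a high load of secretory protein, and the kinase PERK, encoded by Eif2ak3, ties initiation to that load. RNA levels show neither phosphorylation nor the rate of translation.

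With AEBSF, transcripts of 6 of 12 genes of the eIF4 group, 2 of 11 of eIF3, 3 of 4 of eIF5A, eIF5B and eIF6 and 1 of 3 of the 4E-binding proteins rose by small amounts. The cap-binding protein gene Eif4e3 was lower by the largest amount of any initiation factor gene. Of 48 tested genes, 12 rose and 2 fell in limma at an adjusted p of 0.05, against 7.09% of all 9864 tested genes that rose and 9.22% that fell. The 12 make up 25.0% of the tested initiation factor genes and the 2 make up 4.17%. The 2 of 11 of eIF3 (18.2%) lay near the 16.4% that rose among all tested genes with a signal of at least 3606. The rises ran from 1.13-fold for Eif4g2 to 1.28-fold for Eif5b, with a median of 1.20-fold, against a median of 1.24-fold over the 699 tested genes that rose. The median log2 fold change of the 48 genes was 0.10, against 0.002 for all tested genes, and 37 of the 48 values were above 0.

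The rises are small, at most 1.28-fold. Their number depends on how the arrays are scaled, the signal filter, the variance prior and the arrays used. With the arrays scaled to 18 hybridization control probe sets, the median of all genes moved to -0.144, that of the initiation factor genes turned to -0.05, and 0 of them rose and 4 fell in limma, at 0.618% and 15.6% of all genes. That scaling shifts all genes of an array by the same amount. The 12 rises were smaller under it, with log2 fold changes of 0.03 to 0.21. The distance between the 2 medians, 0.094 with either scaling, could not change under such a shift, so it is no test of the scaling. After quantile normalization, which can change it, the distance was 0.047. Other alternatives lowered the count of rises across the whole array as well. Without mineralizing culture 1, 6 initiation factor genes rose (12.5%), against 2.96% of all genes. Without mineralizing culture 2, 4 rose (8.33%) and 1 fell (2.08%), against 3.22% and 5.11% of all genes. Rises numbered 7 when every gene was tested whatever its signal (14.3%, against 3.09% of all genes) and 7 after median centring (14.6%, against 4.96%). Under a constant variance prior 1 rose and 1 fell (2.08% each), against 1.47% and 4.05% of all genes, so that the share of rises lay near that of the array.

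**Figure D1:**
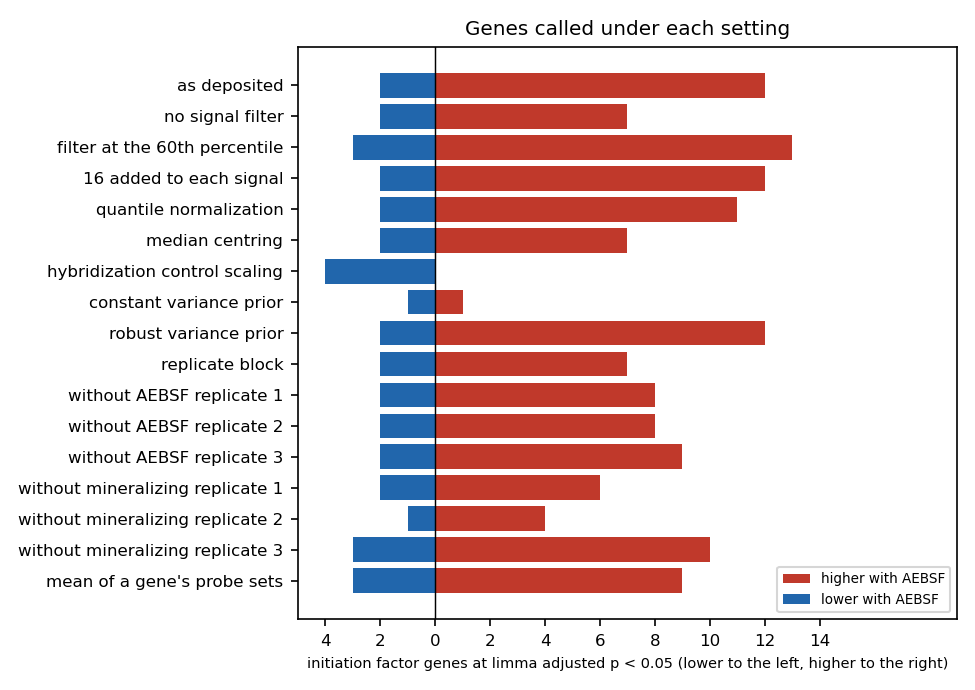
Number of initiation factor genes at a limma adjusted p below 0.05 under each setting, those lower with AEBSF to the left of 0 and those higher to the right. The count of rises runs from 13 with the stricter filter to 0 with hybridization control scaling, and that of falls from 1 to 4.

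Brightness moved with direction across the array. Among the 866 tested genes at or above a signal of 3606, the median of the initiation factor genes, 16.4% rose and 6.35% fell, with a median log2 fold change of 0.07. Below that signal 6.19% of 8998 genes rose and 9.49% fell. Of the 24 initiation factor genes in the brighter set 6 rose and 0 fell, and of the 24 in the dimmer set 6 rose and 2 fell. That signal was chosen after the data were seen, and the part of brightness in the rises was not tested.

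**Figure D2:**
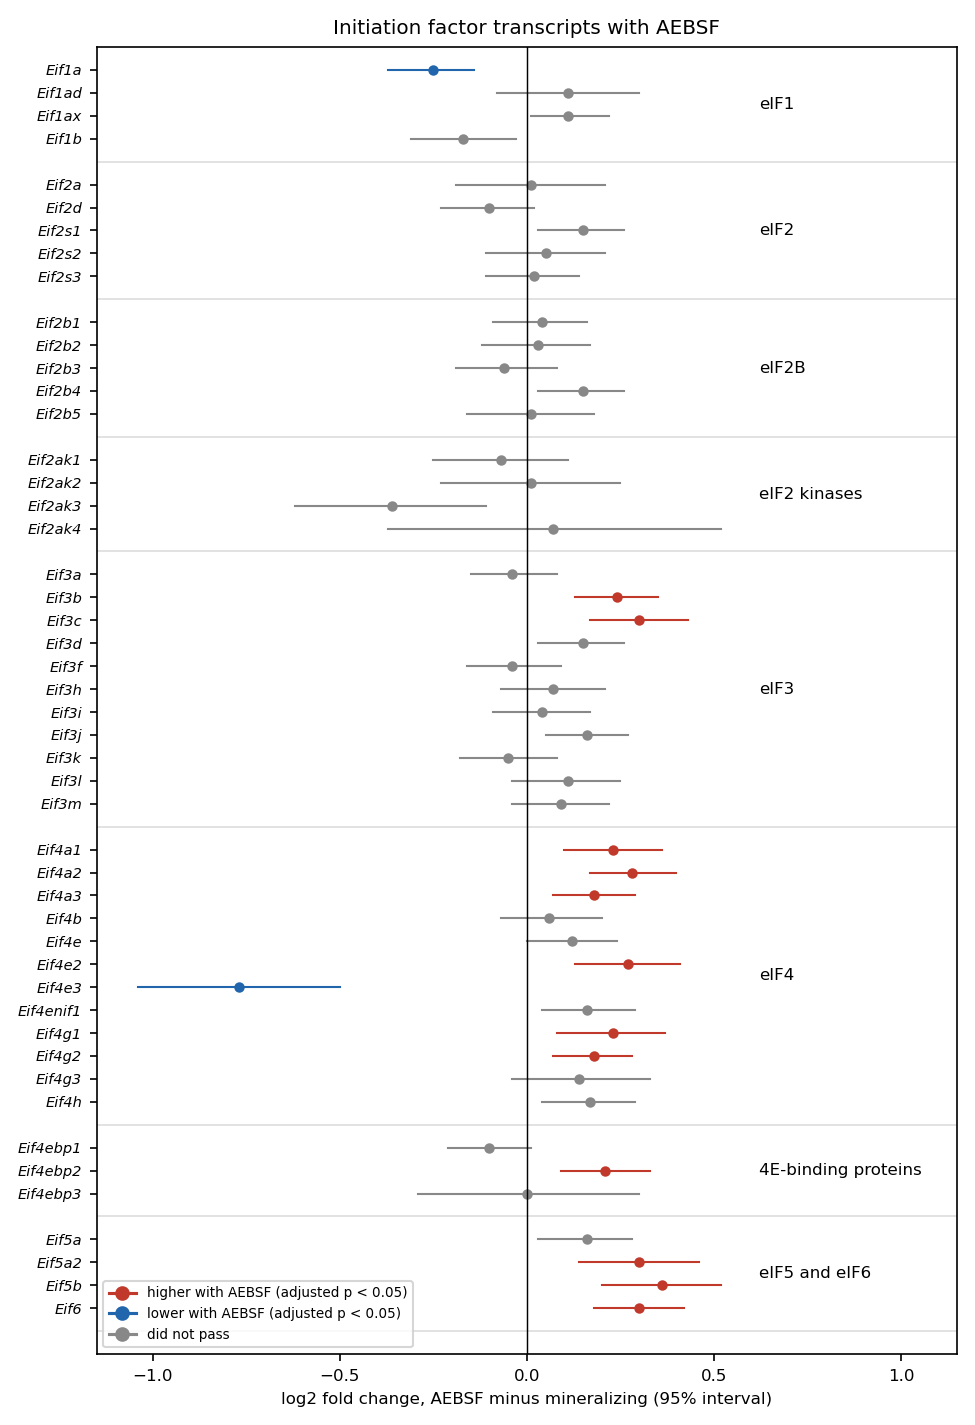
Log2 fold change of the 48 tested initiation factor genes, AEBSF minus mineralizing, with the 95% interval from limma, grouped by complex from eIF1 at the top to eIF5 and eIF6 at the bottom. The 12 red genes rose by 0.18 to 0.36 and lie mostly in the eIF4 and eIF5 and eIF6 groups, Eif4e3 lies farthest to the left at -0.77, and none of the eIF2, eIF2B and kinase genes passed.

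Among the factors that sit on the small subunit before a start codon is found, Eif1a fell. Eif1a and Eif1ax encode forms of eIF1A, which helps the small subunit scan the mRNA. Eif1a had signals of 2296, 2335 and 2425 in the AEBSF cultures, against 2742, 2890 and 2784 in the mineralizing cultures. All 3 AEBSF values lay below all 3 mineralizing values, a 1.19-fold fall (log2 fold change -0.25 with an SE of 0.05, limma adjusted p = 0.0107). Of its 3 other tested probe sets 2 also passed downwards, with log2 fold changes of -0.39 and -0.28, and the remaining one stood at -0.13. The call was lost without mineralizing culture 2 (limma adjusted p = 0.0596) and with a constant variance prior (0.0762).

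The related genes of this group did not pass. Eif1ax averaged 6008 ± 104 with AEBSF and 5550 ± 112 in the mineralizing cultures, with no overlap but a log2 fold change of only 0.11 (SE 0.05, limma adjusted p = 0.146). Eif1b, a close relative of the start codon fidelity factor eIF1, averaged 959 ± 26.1 with AEBSF and 1078 ± 26.1 without (log2 fold change -0.17 with an SE of 0.06, limma adjusted p = 0.105). Its groups did not overlap either, and it passed only with the arrays scaled to hybridization controls (limma adjusted p = 0.0453). Eif1ad, whose protein holds an eIF1A-like domain, had overlapping groups and a log2 fold change of 0.11.

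For eIF2, which carries the initiator tRNA to the small subunit, 0 of 5 tested genes passed in limma, and the median log2 fold change was 0.02. At an unadjusted p of 0.05, which 31.9% of all tested genes passed (15.3% upwards and 16.6% downwards), 1 did: Eif2s1, the alpha subunit that the stress kinases phosphorylate. It had signals of 8083, 7707 and 7798 in the AEBSF cultures and 6825, 7074 and 7437 in the mineralizing cultures. Its groups did not overlap, with a log2 fold change of 0.15 (95% interval 0.03 to 0.26, limma adjusted p = 0.0898). The beta subunit gene Eif2s2 averaged 9849 ± 424 with AEBSF and 9546 ± 979 without, and the gamma subunit gene Eif2s3 averaged 4004 ± 242 and 3953 ± 83.3. Both had overlapping groups, and their 95% intervals for the log2 fold change ran from -0.11 to 0.21 and from -0.11 to 0.14. Eif2a and Eif2d, separate proteins that can deliver initiator tRNA without eIF2, had log2 fold changes of 0.01 and -0.10.

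The 5 genes of eIF2B, which reloads eIF2 with GTP, gave 0 calls in limma and a median of 0.03. At an unadjusted p of 0.05, 1 of the 5 passed, against 31.9% of all tested genes. Eif2b4, the delta subunit, had 1990, 2043 and 2065 with AEBSF against 1866, 1819 and 1828 without. Its groups did not overlap, and the log2 fold change of 0.15 (SE 0.05) had a limma adjusted p of 0.0971. Eif2b1, Eif2b2, Eif2b3 and the catalytic subunit gene Eif2b5 lay between -0.06 and 0.04, with overlapping groups.

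None of the 4 eIF2 kinase genes passed in limma, and 1 did at an unadjusted p of 0.05, against 31.9% of all tested genes. That was Eif2ak3, which encodes the ER stress kinase PERK. It had signals of 323, 291 and 288 in the AEBSF cultures, against 401, 423 and 340 in the mineralizing cultures. All 3 AEBSF values lay below the lowest mineralizing value, with a log2 fold change of -0.36 (95% interval -0.62 to -0.11, limma adjusted p = 0.0605). It passed with a stricter signal filter, at the 60th percentile (0.0477), and in the fit to the mean of each gene's probe sets (0.0418). Eif2ak3 has 1 probe set, so both used the same values, with the log2 fold change still -0.36. It also passed with the hybridization scaling (0.0193), which lowered the log2 fold change of every gene, and without mineralizing culture 3 (0.0437). Under the other 12 of 16 alternatives it did not pass (limma adjusted p up to 0.211).

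The other 3 kinase genes had overlapping groups. Eif2ak1, the haem-regulated kinase HRI, averaged 1439 ± 123 with AEBSF and 1512 ± 132 without, and its second probe set pointed the other way (log2 fold changes -0.07 and 0.14). Eif2ak2, the double-stranded RNA kinase PKR, averaged 499 ± 65.0 with AEBSF and 494 ± 46.1 without (95% interval -0.23 to 0.25). Eif2ak4, the amino acid sensor GCN2, was the least precise. It had 482, 344 and 495 with AEBSF and 351, 599 and 336 without, which leaves an interval of -0.37 to 0.52.

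The eIF3 complex, the largest initiation factor, bridges the small subunit and eIF4G. Of 11 tested subunit genes 2 rose (18.2%), 0 fell and 9 did not pass, with a median of 0.09. All 11 averaged above a signal of 3606 in both groups. Of all tested genes that bright, 16.4% rose and the median was 0.07. Eif3c, a core subunit, had 9439, 8904 and 9951 with AEBSF, against 7588, 7300 and 8049 without. The lowest AEBSF value lay above the highest mineralizing value, a 1.23-fold rise (log2 fold change 0.30 with an SE of 0.06, limma adjusted p = 0.00689). A second probe set of Eif3c stood at 0.17 (limma adjusted p = 0.0867). Eif3b, which with Eif3a and Eif3c forms the core of the complex, had 7885, 8039 and 7827 with AEBSF and 6543, 6584 and 6955 without. It rose 1.18-fold with no overlap (log2 fold change 0.24 with an SE of 0.05, limma adjusted p = 0.00928), a call lost without mineralizing culture 2 (0.054). Both rises were lost with a constant variance prior (0.0758 for Eif3c and 0.082 for Eif3b) and with the hybridization scaling (0.245 and 0.516).

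Eif3a, the other core subunit gene, did not pass and averaged 6239 ± 244 with AEBSF and 6401 ± 237 in the mineralizing cultures, with a log2 fold change of -0.04 (95% interval -0.15 to 0.08). The difference between subunits was not tested. Eif3j, a loosely bound subunit, and Eif3d, a subunit that can itself bind the cap, had groups that did not overlap. Eif3j averaged 4370 ± 153 with AEBSF and 3906 ± 54.5 without (log2 fold change 0.16, limma adjusted p = 0.0567), and it passed under the stricter signal filter (0.0391) and in the fit to the mean of each gene's probe sets (0.0381). Eif3d averaged 8295 ± 246 and 7491 ± 285 (0.15, limma adjusted p = 0.0836). Eif3f, Eif3h, Eif3i, Eif3k, Eif3l and Eif3m had overlapping groups and lay between -0.05 and 0.11.

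The eIF4 genes held the most calls of any group: of 12 tested, 6 rose and 1 fell, with a median of 0.17. The shares of all tested genes that rose and fell were 7.09% and 9.22%. Among tested genes at or above a signal of 3606, 16.4% rose and the median was 0.07, and below it 6.19% rose. Of the 6 that rose, Eif4a1, Eif4a2, Eif4a3 and Eif4g2 averaged above that signal in both groups, and Eif4e2 and Eif4g1 did not. All of the eIF4A genes rose. These encode DEAD-box RNA helicases: eIF4A1 and eIF4A2 unwind the mRNA leader, and eIF4A3 belongs to the exon junction complex. Eif4a2 had 9915, 9865 and 10315 with AEBSF, against 7826, 8383 and 8514 without (log2 fold change 0.28 with an SE of 0.05, limma adjusted p = 0.00539). Eif4a1 had 13499, 14455 and 14063 with AEBSF and 11041, 12158 and 12584 without (0.23, SE 0.06, adjusted p = 0.0247). Eif4a3 had 5203, 5290 and 5264 with AEBSF and 4476, 4600 and 4798 without (0.18, SE 0.05, adjusted p = 0.0329). In each of the 3 the groups stood apart, and mineralizing culture 1 was the lowest array.

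The 3 eIF4A calls were lost under different sets of alternatives. All were lost with the hybridization scaling (limma adjusted p = 0.288 for Eif4a2, 0.549 for Eif4a1 and 0.829 for Eif4a3) and with a constant variance prior (0.067, 0.125 and 0.137). Without a signal filter and after median centring, Eif4a1 (0.0583 and 0.0586) and Eif4a3 (0.0608 and 0.0914) were lost too. Eif4a2 kept its call without any 1 of the 6 arrays, and a second, dimmer probe set of it did not pass (log2 fold change 0.18, limma adjusted p = 0.199). Eif4a1 lost it without AEBSF culture 2 or 3 or mineralizing culture 1 or 2 (limma adjusted p = 0.0729, 0.0601, 0.0844 and 0.0696). Eif4a3 lost it without AEBSF culture 1, 2 or 3 or mineralizing culture 1 or 2 (0.0683, 0.072, 0.0617, 0.12 and 0.116). Eif4b and Eif4h, whose proteins stimulate eIF4A, did not pass (log2 fold changes 0.06 and 0.17, limma adjusted p = 0.548 and 0.0821). Both probe sets of Eif4h stood at 0.17, and it passed without mineralizing culture 3 (0.0359).

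The 3 tested cap-binding protein genes gave 1 fall, 1 rise and 1 that did not pass. Over all tested genes 9.22% fell and 7.09% rose. Eif4e3, an atypical member of the eIF4E family, had 314, 240 and 266 in the AEBSF cultures, against 463, 425 and 505 in the mineralizing cultures. The highest AEBSF value lay well below the lowest mineralizing value, a 1.71-fold fall (log2 fold change -0.77 with an SE of 0.12, limma adjusted p = 0.0025). A second probe set fell by 0.70 (SE 0.15, limma adjusted p = 0.0131), with 280, 326 and 207 with AEBSF against 414, 476 and 413 without. The call held under all 16 alternatives, with adjusted p between 9.57e-05 and 0.0267 and log2 fold changes between -0.92 and -0.68. By size of fall it ranked 95 among 9864 tested genes.

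Eif4e2, whose protein 4EHP binds the cap without recruiting eIF4G and can repress translation, moved the other way. It had 2748, 3126 and 2814 with AEBSF against 2340, 2330 and 2512 without, a 1.21-fold rise with no overlap (log2 fold change 0.27 with an SE of 0.06, limma adjusted p = 0.0165). This call was lost without mineralizing culture 1 or 2 (0.067 and 0.0704). Eif4e itself, the canonical cap-binding factor, had 5436, 5886 and 6092 with AEBSF and 5314, 5263 and 5463 without. Its groups overlapped by 1 array, and the log2 fold change of 0.12 (95% interval 0.00 to 0.24) did not pass (limma adjusted p = 0.192). A dimmer probe set of Eif4e stood at -0.12, and another lay below the signal filter.

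Of the 3 scaffold genes 2 rose, against 7.09% of all tested genes, and probe sets of both disagreed. Eif4g1, the main scaffold, had 4004, 3787 and 3323 with AEBSF, against 3179, 3098 and 3189 without (log2 fold change 0.23 with an SE of 0.07, limma adjusted p = 0.0449). Of its 3 other tested probe sets, 1 rose by 0.53 (SE 0.15, limma adjusted p = 0.0381) and the other 2 stood at -0.01 and -0.08. Eif4g1 kept its call without AEBSF culture 3 and lost it without AEBSF culture 1 or 2 or mineralizing culture 1, 2 or 3 (0.147, 0.106, 0.107, 0.137 and 0.0888). It was also lost in the fit to the mean of its probe sets (0.138), with no signal filter (0.0875) and after median centring (0.0676). Eif4g2, a relative that lacks the eIF4E-binding site, averaged 15137 ± 310 with AEBSF and 13394 ± 353 without (log2 fold change 0.18, limma adjusted p = 0.0366). A second probe set of Eif4g2 rose by 0.22 (limma adjusted p = 0.0174), while another stood at -0.23 (limma adjusted p = 0.0873). The Eif4g2 call was lost in the fit to the mean of its probe sets (log2 fold change 0.06, limma adjusted p = 0.445), after quantile normalization (0.434), after median centring (0.125), with no signal filter (0.0816) and without AEBSF culture 1, 2 or 3 or mineralizing culture 1 or 2 (0.123, 0.0604, 0.0793, 0.098 and 0.146). Eif4g3 and Eif4enif1, the second scaffold and the eIF4E transporter, did not pass, at 0.14 and 0.16. Eif4g3 passed without AEBSF culture 3 (0.0349).

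**Figure D3:**
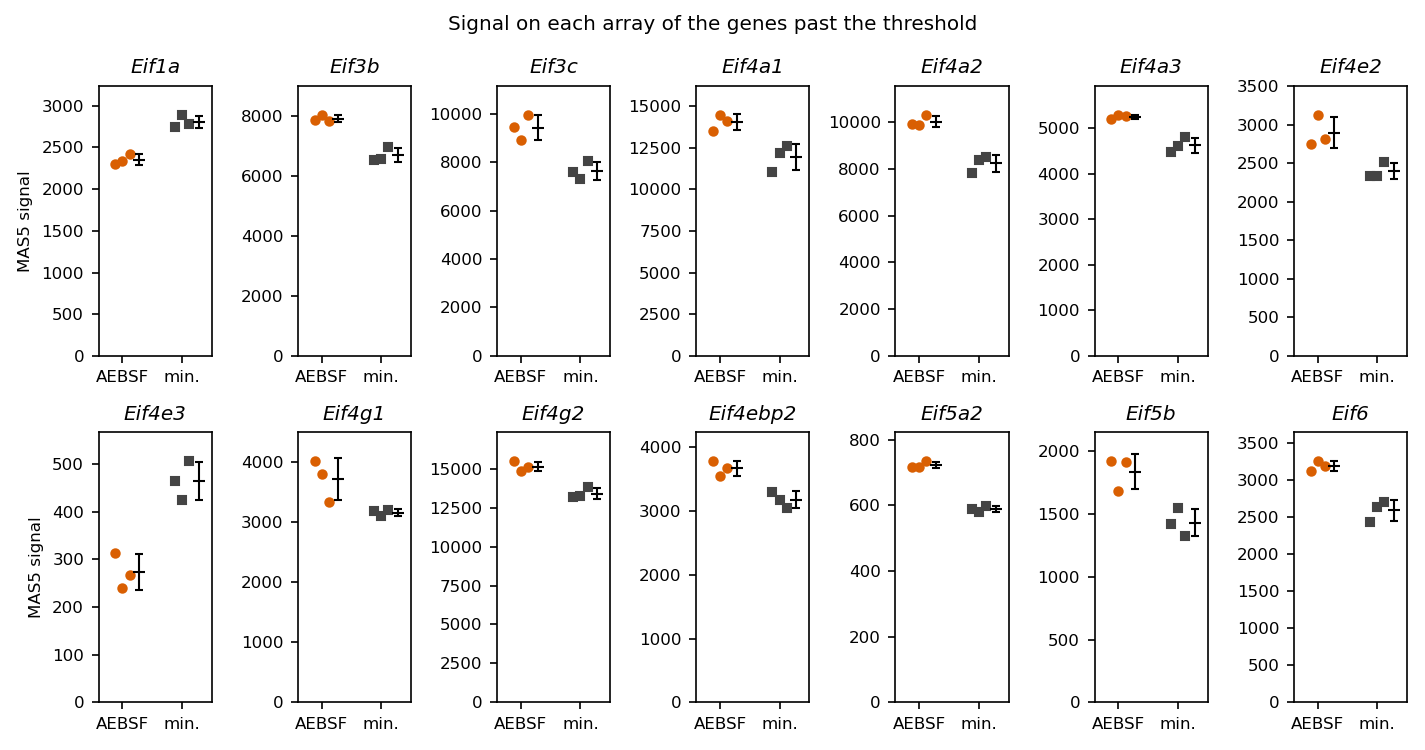
MAS5 signal, in arbitrary units on axes that start at 0, of the 14 genes past the threshold: orange circles are the 3 AEBSF cultures, grey squares the 3 mineralizing cultures (min.), and the black marks the mean ± SD of each. The groups stand apart in every panel; the fall of Eif4e3 is 1.71-fold, and the rises are at most 1.28-fold.

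Of the 3 genes of 4E-binding proteins, the repressors that mTORC1 switches off, 1 passed upwards, against 7.09% of all tested genes. Eif4ebp2 rose, with 3776, 3551 and 3674 in the AEBSF cultures against 3304, 3178 and 3047 in the mineralizing cultures (log2 fold change 0.21 with an SE of 0.05, limma adjusted p = 0.0281). That call was lost without AEBSF culture 1 or 3 or mineralizing culture 2 or 3 (0.0853, 0.0518, 0.0922 and 0.0924), with no signal filter (0.0517) and after median centring (0.0678). Eif4ebp1 had 4520, 4346 and 4217 with AEBSF and 4580, 4717 and 4715 without. All of its AEBSF values lay below the mineralizing ones, but the log2 fold change was -0.10 (95% interval -0.21 to 0.01, limma adjusted p = 0.226). Eif4ebp3 averaged 348 ± 64.1 with AEBSF and 343 ± 7.82 without, and its interval ran from -0.29 to 0.30.

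Of the 4 tested genes of eIF5A, eIF5B and eIF6, 3 rose and all 4 had groups that did not overlap, with a median of 0.30. Over all tested genes 7.09% rose and 17.0% had all AEBSF values above all mineralizing values. Eif5b, a GTPase that joins the large subunit to the small one, had 1917, 1678 and 1912 with AEBSF against 1421, 1544 and 1326 without. It had the largest rise of the initiation factor genes, 1.28-fold (log2 fold change 0.36 with an SE of 0.08, limma adjusted p = 0.0102). Its 2 other tested probe sets did not pass, at 0.13 and -0.04, and the call was lost in the fit to the mean of all 3 (0.195). Eif6, which binds the large subunit and keeps it from joining too early, had 3123, 3253 and 3191 with AEBSF against 2440, 2633 and 2710 without. It rose 1.23-fold (log2 fold change 0.30 with an SE of 0.06, limma adjusted p = 0.00621) and kept its call without any 1 array. Both calls were lost with a constant variance prior (0.0769 for Eif5b and 0.0647 for Eif6) and with the hybridization scaling (0.152 and 0.284).

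The eIF5A genes encode a small protein, modified by the amino acid hypusine, that helps ribosomes through difficult peptide bonds. Eif5a2 had 718, 718 and 734 with AEBSF and 590, 579 and 599 without, with little spread in either group. It rose 1.23-fold (log2 fold change 0.30 with an SE of 0.07, limma adjusted p = 0.0219) and was the only rise left with a constant variance prior. The call was lost without mineralizing culture 1, 2 or 3 (0.0747, 0.0823 and 0.0544). It was also lost in the fit to the mean of both probe sets (log2 fold change 0.18, limma adjusted p = 0.226), where the dimmer one stood at 0.06. Eif5a averaged 12282 ± 639 with AEBSF and 11015 ± 524 without (log2 fold change 0.16, limma adjusted p = 0.0947).

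**Figure D4:**
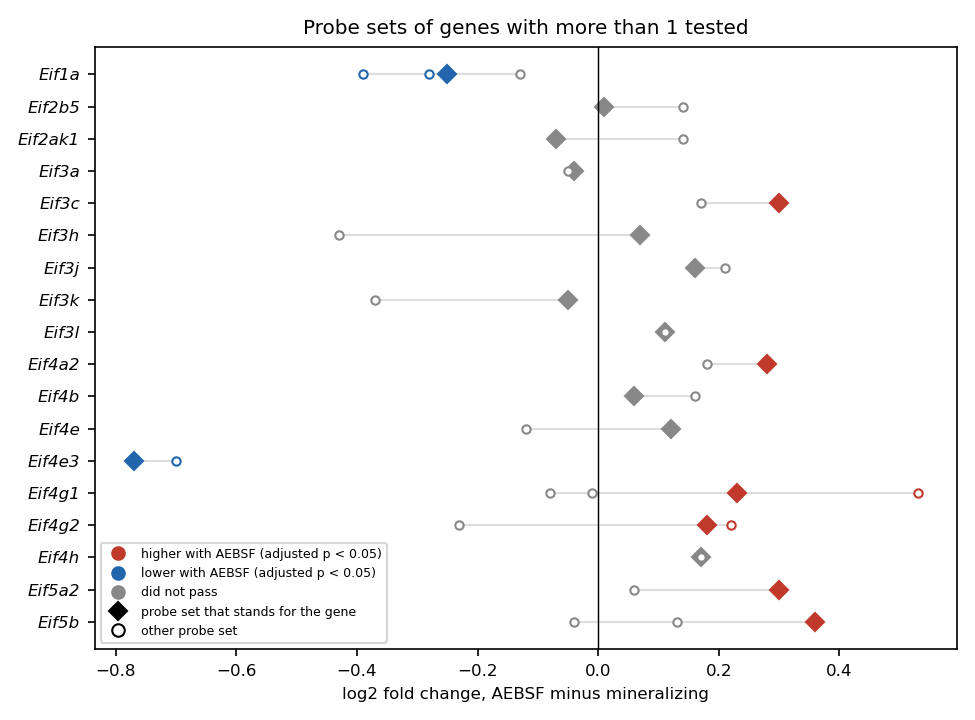
Log2 fold change, AEBSF minus mineralizing, of each tested probe set of the 18 initiation factor genes with more than 1; filled diamonds are the brightest probe set, which stands for the gene, and open circles the others. Both probe sets of Eif4e3 and 3 of the 4 of Eif1a are blue, and those of Eif4g1 and Eif4g2 lie on both sides of 0.

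Over all 72 tested probe sets, 14 rose and 5 fell, against 5.99% and 7.41% of the 18625 tested on the array. Of the 8 called genes with other tested probe sets, a further probe set moved the same way and passed for 4 (Eif1a, Eif4e3, Eif4g1 and Eif4g2) and for the other 4 none did. In 0 of the 8 did a further probe set pass against the gene's own direction. Counted by overlap alone, 20 genes had all AEBSF values above all mineralizing values and 5 had them below, against 17.0% and 19.1% of all tested genes. The 5 were Eif1a, Eif1b, Eif2ak3, Eif4e3 and Eif4ebp1. Within the mineralizing group, culture 1 gave the lowest value for 26 of the 48 genes and culture 3 the highest for 30. The AEBSF cultures were more even, with the highest value in culture 1, 2 and 3 for 19, 11 and 18 genes. This order was not counted over all tested genes, so it cannot be called particular to the initiation factor genes.

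Other genes of translation were counted from lists of 56 genes, of which 53 were tested. In limma 5 rose (9.43%), 7 fell (13.2%) and 41 did not pass, with a median log2 fold change of 0.05. These shares lie near the 7.09% and 9.22% of all tested genes that rose and fell, and the lists they come from hold 2 to 12 tested genes each. The largest fall was that of Pdcd4, an inhibitor of eIF4A, with 801, 772 and 766 in the AEBSF cultures against 1389, 1271 and 1325 in the mineralizing cultures. That 1.70-fold fall (log2 fold change -0.77 with an SE of 0.07, limma adjusted p = 5.79e-05) kept its call under every alternative run, while Eif4a1 and Eif4a2 rose by at most 1.22-fold. Among partners of the eIF2 kinases, 2 of 4 fell. Dnajc3, an inhibitor of PERK and PKR, averaged 1206 ± 103 with AEBSF and 1672 ± 62.8 without (log2 fold change -0.47, limma adjusted p = 0.00179). Prkra, an activator of PKR, averaged 1390 ± 25.7 and 1627 ± 90.2 (-0.23, limma adjusted p = 0.0338), a call lost without each of the 6 arrays (0.0558 to 0.128).

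Of 5 genes induced when eIF2 is phosphorylated, 3 fell, against 9.22% of all tested genes. Ddit3, Trib3 and Asns had log2 fold changes of -0.32, -0.37 and -0.41 (limma adjusted p = 0.00185, 0.00149 and 0.00105). Atf5 did not pass (-0.14, limma adjusted p = 0.378). Atf4, whose control is mainly translational, did not pass either, with 13352 ± 643 with AEBSF and 13014 ± 541 without (limma adjusted p = 0.714). None of the 5 eIF2 phosphatase genes passed in limma (0 at an unadjusted p of 0.05 as well, against 31.9% of all tested genes). Dhps, which makes the hypusine precursor on eIF5A, had 665, 599 and 673 with AEBSF against 818, 820 and 858 without, a 1.29-fold fall (log2 fold change -0.37 with an SE of 0.08, limma adjusted p = 0.0104), and Dohh, the enzyme of the next step, did not pass (0.06, adjusted p = 0.591).

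Among auxiliary initiation factors Bzw1, a mimic of eIF5, and Abcf1, an eIF2-binding ATPase, rose, 2 of 8 against 7.09% of all tested genes. Bzw1 averaged 8255 ± 220 with AEBSF and 7049 ± 92.3 without (log2 fold change 0.23, limma adjusted p = 0.0116). Abcf1 averaged 2723 ± 118 and 2274 ± 237 (0.26, adjusted p = 0.035), a call lost without AEBSF culture 1, 2 or 3 or mineralizing culture 1 or 2 (0.0538, 0.0945, 0.0594, 0.134 and 0.134). The release factor genes Gspt1 and Etf1 rose, with log2 fold changes of 0.25 and 0.20 (limma adjusted p = 0.0233 and 0.035). They are 2 of 3 tested genes of termination and recycling, against 7.09% of all tested genes. The remaining gene, Abce1, did not pass (-0.01, limma adjusted p = 0.902). Gspt1 lost the call without AEBSF culture 2 or 3 or mineralizing culture 1 or 2 (0.0667, 0.0586, 0.0818 and 0.101). Etf1 lost it without AEBSF culture 2 or 3 or mineralizing culture 1, 2 or 3 (0.0538, 0.0933, 0.114, 0.0898 and 0.0745). Larp1, an mTORC1 target that binds mRNAs of the translation machinery, rose by 0.20 (limma adjusted p = 0.0303), a call lost without AEBSF culture 1 or 2 or mineralizing culture 1, 2 or 3 (0.0781, 0.0836, 0.114, 0.0931 and 0.053). All 5 of these rises lost their call with the hybridization scaling (adjusted p = 0.479 to 0.764). A constant variance prior also removed all 5 calls (limma adjusted p = 0.0883 to 0.143). Larp1, Abcf1 and Etf1 also lost the call with no signal filter (0.0565, 0.0687 and 0.066) and after median centring (0.0649, 0.0527 and 0.0892). Of 8 elongation genes 0 passed in limma, and 1, Eef1d, did at an unadjusted p of 0.05, against 31.9% of all tested genes.

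Promoter sequences of 45 of the 49 genes were found in RefSeq (GRCr8), and the 250 bases before the start were searched for 4 short motifs on both strands. The E-box (CACGTG, its own reverse complement), which MYC and related factors bind, is known from the Eif4e promoter. It occurred in 8 of the 45 initiation factor promoters (17.8%), in 3 of the 12 whose gene rose, and in 8.95% of 8305 promoters of tested genes. The ETS motif (CCGGAAGT) occurred in 11 of the 45 (24.4%), in 2 of the 12 whose gene rose, and in 7.57% of promoters of tested genes. The antioxidant response motif (TGACNNNGC) occurred in 8 (17.8%), in 2 of the 12 and in 12.7%. The motif of ATF4 (TGATGNAA) occurred in 1, that of Eif2s2 (2.22%), in 0 of the 12 and in 1.63%. Over all 27457 promoters the 4 shares were 5.79%, 3.29%, 10.2% and 3.27%. Matches of different motifs may overlap, and a match is of letters, not a site shown to be bound.

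The promoters of the 3 genes that rose and hold an E-box are shown with that of Eif4e, which holds 2 and did not pass, so that their number and place can be compared. Each runs 5′ to 3′ on the gene's strand over the 250 bases before the start, with the E-boxes in capitals.
Eif3b, chr12:19334769-19335018, minus strand: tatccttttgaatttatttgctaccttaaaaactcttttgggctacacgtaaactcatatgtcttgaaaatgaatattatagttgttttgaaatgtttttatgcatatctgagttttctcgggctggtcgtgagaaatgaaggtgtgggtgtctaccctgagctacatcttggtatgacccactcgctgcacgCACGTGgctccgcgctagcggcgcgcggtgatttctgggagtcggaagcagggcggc
Eif4g1, chr11:93746368-93746617, minus strand: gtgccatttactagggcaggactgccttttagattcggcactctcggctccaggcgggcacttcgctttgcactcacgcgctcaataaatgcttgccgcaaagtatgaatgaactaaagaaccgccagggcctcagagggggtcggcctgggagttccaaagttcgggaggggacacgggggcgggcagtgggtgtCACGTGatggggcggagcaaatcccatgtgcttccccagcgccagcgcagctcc
Eif5a2, chr2:113657584-113657833, plus strand: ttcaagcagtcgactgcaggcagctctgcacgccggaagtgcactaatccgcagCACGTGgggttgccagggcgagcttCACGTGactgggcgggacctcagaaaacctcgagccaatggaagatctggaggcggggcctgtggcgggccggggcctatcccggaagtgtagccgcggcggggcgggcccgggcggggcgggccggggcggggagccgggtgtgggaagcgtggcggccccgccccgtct
Eif4e, chr2:229740503-229740752, plus strand: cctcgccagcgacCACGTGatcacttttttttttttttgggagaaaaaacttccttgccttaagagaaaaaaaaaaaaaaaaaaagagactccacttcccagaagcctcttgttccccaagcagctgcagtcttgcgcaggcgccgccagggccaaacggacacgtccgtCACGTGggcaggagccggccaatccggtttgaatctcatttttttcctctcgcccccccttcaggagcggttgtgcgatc

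The Eif5a2 and Eif4e windows hold 2 E-boxes each and the other windows 1. Eif5a2 rose 1.23-fold and Eif4e stood at 1.08-fold without passing, so genes with 2 E-boxes were found on both sides of the threshold. Of the 12 genes that rose, the other 9 hold no E-box in this window.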

How the data were processed

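Per the submitters' processing notes, the authors made the deposited intensity values as MAS5 signals in GCOS, 1 per probe set and array. No software version or detection call is given in the sources used here. The table holds 31099 probe sets, 57 of them controls, and no 2 arrays shared more than 2 equal values. Gene symbols came from GEO's platform annotation: 20826 had 1 symbol, 436 several and 9780 were unnamed here; the Entrez identifiers of 20758 were found in RefSeq, and no symbol differed. The log2 signal was tested in R 4.3.3 with limma 3.58.1 (lmFit, eBayes with a trend), AEBSF minus mineralizing, over the 18625 probe sets whose mean lay above the 40th percentile (a signal of 67.2), with Benjamini-Hochberg adjustment over all of them and a threshold of 0.05. A gene is its probe set with the highest mean over all arrays. The script was tested on simulated data, with changes larger than those of the initiation factor genes and a common variance for all probe sets. That test cannot show how well changes of their size are found. Intervals are 95% intervals from limma; arrays limit precision by their number, 3 per group. All 48 tested genes are accounted for; those past the threshold, the kinases, the 4E-binding proteins, Eif2s1, Eif2s2, Eif2s3, Eif4a1, Eif4e and Eif4g1 are named with values, and any other gene named was picked after its values were seen. The members, the lists of other translation genes and the alternatives were chosen with earlier results of these data known. Alternatives changed the filter, an added constant of 16, the normalization, the variance prior, the probe set, the replicate block and the arrays used.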

Additional observations from a re-analysis of the deposited data

How the results depend on the processing

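Over 16 alternatives the count of rises, 12, was 7 with no signal filter, 7 with median centring, 0 with hybridization control scaling, 1 with a constant variance prior and 7 with the replicate block. Leaving out 1 array at a time gave 4 to 10 rises, 1 to 3 falls and a median log2 fold change of 0.07 to 0.12. The count of falls, 2, was 4 with hybridization control scaling and 1 with a constant variance prior. The median of 0.10 was 0.05 after quantile normalization and -0.05, reversed, with hybridization control scaling; the cause was not tested. The second probe set of Eif4g1 stood at -0.01, the only called initiation factor gene whose sign turned under an alternative. Among 786 values of single genes under the alternatives, 79 lost a call and 9 gained one. Only values of the 14 called genes could lose a call, and only those of the 34 others could gain one. The 786 are therefore not the base of either count. The replicate block lost the calls of Eif4a3 (0.0713), Eif4g1 (0.0653), Eif4g2 (0.0801), Eif4ebp2 (0.0547) and Eif5a2 (0.0507), in limma adjusted p. The values gave no sign that the replicate numbers pair the cultures. The deviations of same-numbered arrays correlated at 0.0109, -0.119 and -0.0359, and no AEBSF array correlated best with the mineralizing array of its own number. With 3 arrays per group such correlations cannot show whether the cultures were handled in pairs. The alternatives for the other translation genes were added after seeing the data. Eif3c, Eif4a2, Eif4e3, Eif5b and Eif6 kept their calls without any 1 array. Precision is limited by 3 arrays per group.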
